A study of Mus musculus with 8 samples.

Results

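The 10 transcription factors described here, Tbx21, Eomes, Gata3, Foxp3, Bcl6, Prdm1, Maf, Tcf7, Lef1 and Bach2, were chosen by name as the factors of T helper fates other than Th17, and all 10 were present among the 22829 genes listed. CD4+ T cells of ROR-γt-/- mice, which lack the Th17 factor ROR-γt, had been isolated from spleen with magnetic beads, given back ROR-γt by lentivirus and cultured toward the Th17 fate. WT samples (n = 4) received WT-ROR-γt and K187R samples (n = 4) received K187R-ROR-γt, in which the lysine that accepts SUMO, a small protein tag, is an arginine. By design both groups therefore share the ROR-γt-/- background, the virus and the culture, and differ by the form of ROR-γt. Other differences between the samples, which did not fall equally on the groups, are described below. The age and sex of the animals and a selection of transduced cells are not given in the sources used here. The series' design text counts 4 WT and 4 mutant mice, while the sample labels describe reconstituted cells of ROR-γt-/- mice and tie no replicate to an animal or culture, so p-values measure only the spread between these samples, part of which may be technical.

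A naive CD4+ T cell takes 1 of several fates, and each fate is directed by a few transcription factors that switch on its genes and restrain the factors of the other fates. Tbx21 directs Th1, Gata3 Th2, Foxp3 the regulatory T cell (Treg) and Bcl6 the follicular helper T cell (Tfh), while ROR-γt directs Th17. Foxp3 and ROR-γt are both induced by TGF-β and bind each other, so Treg and Th17 cells share a branch point. Prdm1, the gene of Blimp-1, and Bcl6 repress each other, and Tcf7, Lef1 and Bach2 keep T cells in less differentiated, naive or memory-like states. The comparison of WT with K187R asks whether the form of ROR-γt that cannot carry SUMO came with another level of any of these factors.

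Levels are normalized counts, the reads on a gene divided by 1 size factor per sample. Between 52456804 and 74676721 reads were counted per sample, and the factors had from 31 reads (the lowest Eomes sample) to 92302 reads (the highest Tcf7 sample), where 3 reads, taken as the floor of detection, are 2.54 to 3.56 normalized counts. All 6 T cell markers were present, with summed normalized counts of 119952 to 141881 in WT and 125796 to 142624 in K187R. The 8 samples fell into 3 sets that did not follow the groups, found by clustering 16854 genes without the factors and the lists used below. WT replicates 1 and 3 clustered with K187R replicate 1 (set 1), WT replicate 2 with K187R replicates 2 and 3 (set 2), and the replicates numbered 4 of both groups with each other (set 3). Xist, the RNA of the inactive X chromosome, was between 13564 and 17373 normalized counts in set 2 and between 3.56 and 23.7 in the other samples. The sex of the animals is not given. Whether it differed between set 2 and the other samples was not tested, and sex cannot be told apart from other differences of set 2.

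None of the 10 factors passed a test of the difference between WT and K187R. With limma on log2(normalized count + 1), adjusted over the 16982 genes whose mean was 10 or more, 0 of the 10 passed 0.05, as did 0% of all genes tested. At an unadjusted p under 0.05 the count was also 0 of 10, against 4.39% of all genes tested. No factor had its 4 K187R samples all above or all below its 4 WT samples, against 2.46% of all genes tested. DESeq2 on the reads recovered from the normalized counts called 0 of the 10, against 0.202% of the genes it tested, and edgeR called 0. Of the log2 differences, 9 were positive and 1, that of Foxp3, was negative, with a median of 0.15 against -0.0062 over all genes tested, and the 95% interval of every factor included 0. Several of the factors followed the sets of samples: in set 2 Eomes and Prdm1 were higher and Foxp3 was lower than in any other sample, in WT and K187R alike.

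**Figure D1:**
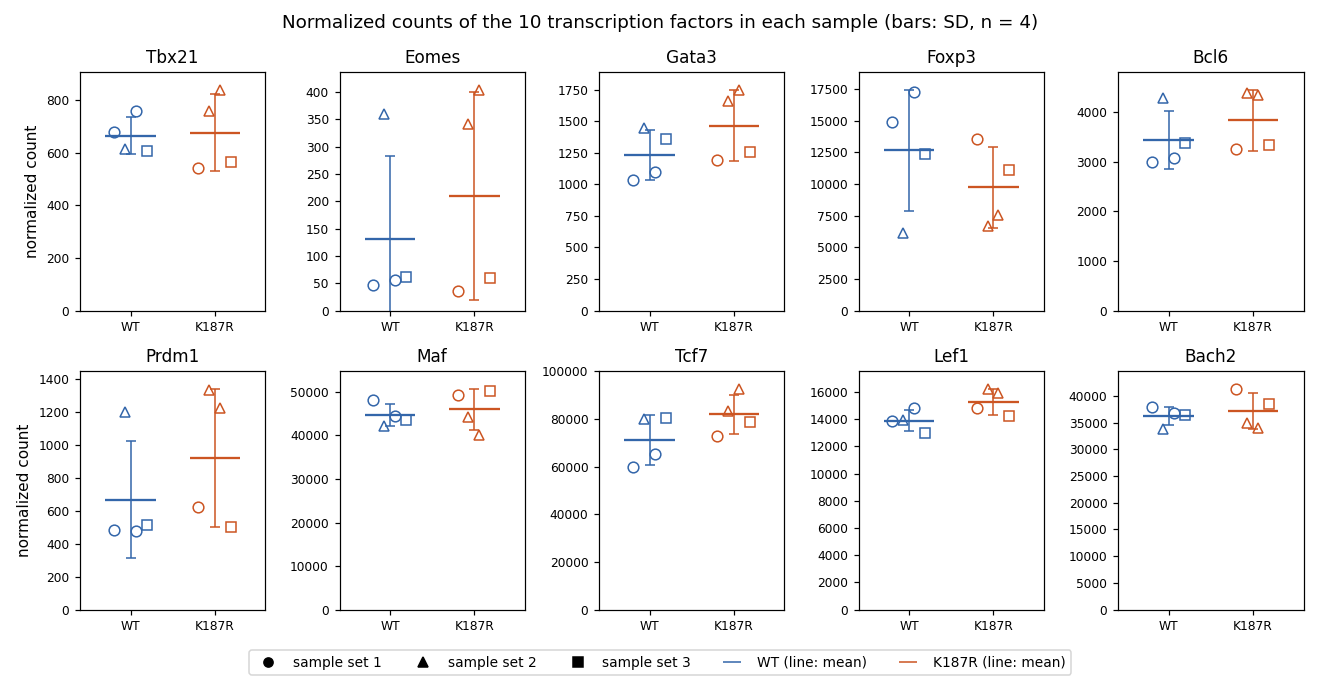
Normalized count (vertical axes, linear, from 0) of each of the 10 factors in the 4 WT and 4 K187R samples, with 1 point per sample, a line at the group mean, a bar for the SD and a marker shape for the sample set. The lower SD bar of Eomes in WT is drawn only to 0. For Eomes, Foxp3, Bcl6 and Prdm1 the triangles of set 2 stand apart from all other points in both groups. The same holds by a narrower gap for Gata3 and Bach2.

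Foxp3, the factor that defines Treg cells, is encoded on chrX:7573644-7595245 (GRCm38, plus strand, ENSMUSG00000039521). Its normalized counts were 14863, 6121, 17297 and 12367 in WT replicates 1 to 4 and 13524, 6666, 7574 and 11144 in K187R replicates 1 to 4. The groups overlapped, with the lowest sample of all in WT (replicate 2) and K187R replicate 1 above WT replicate 4. The mean was 12662 ± 4803 in WT against 9727 ± 3185 in K187R (SD, n = 4 each), a log2 difference of -0.34 (standard error 0.330, 95% interval -1.08 to 0.40, adjusted p = 0.923 from limma). As a single gene it gave p = 0.4 in an exact two-sided permutation test, in which 4 samples against 4 cannot go below 0.0286. The 3 samples of set 2 held 6121 to 7574 normalized counts and the other 5 samples held 11144 to 17297. The mean normalized count of set 2 was 51.0% lower than that of the other 5 samples. Within the sets the difference between K187R and WT had no common sign, being -0.25, 0.22 and -0.15 in sets 1 to 3 on the log2 scale. Of the exonic bases of Foxp3, 18.6% overlap the noncoding gene Flicr on the same strand and 18.7% overlap genes on the other strand, Ccdc22 and Ppp1r3f among them. Whether counting used the strand is not given in the sources used here, so reads in these stretches could not be assigned to 1 gene with certainty.

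RefSeq promoters (GRCm38.p6, windows of 300 bases around a start of transcription) were found for 9 of the 10 factors, 15 windows in all. Maf was the factor without an entry. They were searched on both strands for AGGTCA, the core motif bound by ROR receptors and by other nuclear receptors, which 16.3% of all 32851 promoters hold. Of the 15 windows 2 held a match, near the share of all promoters. They were 1 of the 2 windows of Foxp3 and 1 of the 2 windows of Tcf7, and these windows are shown because ROR-γt is the factor whose form was varied. Capitals mark AGGTCA or its reverse complement, and in Foxp3 also AGATAA, which factors such as Gata3 bind and 11.2% of all promoters hold.
Foxp3 promoter, chrX:7580233-7580532, plus strand: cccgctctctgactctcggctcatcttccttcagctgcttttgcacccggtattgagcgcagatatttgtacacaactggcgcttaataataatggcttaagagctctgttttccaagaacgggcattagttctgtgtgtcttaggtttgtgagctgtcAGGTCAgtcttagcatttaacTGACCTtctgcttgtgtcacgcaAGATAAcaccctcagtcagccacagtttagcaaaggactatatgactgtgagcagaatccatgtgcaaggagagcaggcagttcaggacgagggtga
Tcf7 promoter, chr11:52282546-52282845, minus strand: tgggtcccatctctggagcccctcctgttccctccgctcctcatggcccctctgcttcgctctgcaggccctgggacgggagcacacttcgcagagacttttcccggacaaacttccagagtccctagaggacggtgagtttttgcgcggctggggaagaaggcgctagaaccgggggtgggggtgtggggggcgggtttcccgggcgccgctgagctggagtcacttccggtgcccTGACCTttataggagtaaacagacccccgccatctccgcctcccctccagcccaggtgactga
In Foxp3 the forward match began 91 bases before the start of transcription and the reverse match 70 bases before it, with AGATAA at 47 bases before it. In Tcf7 the reverse match began 13 bases before the start. These starts of transcription lie 6839 bases (Foxp3) and 419 bases (Tcf7) from the start of the gene coordinates given here. A match is a run of letters and not a measured binding site. The other motifs searched were AGGTGTGA (T-box motif, held by 1.28% of all promoters), CTTTGAA (TCF and LEF site, 5.14%) and TGCTGAC (Maf motif, 4.67%), none of which contains another of the motifs. The T-box motif and the TCF and LEF site matched 0 of the 15 windows, and 1 window of Lef1 held both the Maf motif and AGATAA.

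Eomes and Tbx21 are T-box factors that share target genes such as Ifng. Eomes (chr9:118478212-118486132, plus strand, ENSMUSG00000032446) is best known from cytotoxic T cells and natural killer (NK) cells. Its normalized counts were 46.3, 359.6, 55.8 and 61.9 in WT replicates 1 to 4 and 35.0, 341, 404 and 58.7 in K187R replicates 1 to 4. The 3 samples of set 2 lay between 341 and 404 and the other 5 between 35.0 and 61.9, a 7.14-fold step that took in 1 WT and 2 K187R samples. The means were 131 ± 153 in WT against 210 ± 190 in K187R (SD, n = 4 each), a log2 difference of 0.57 (standard error 0.900, 95% interval -1.45 to 2.59, adjusted p = 0.941 from limma). Between samples of the same set it was -0.53, 0.046 and -0.075 on the log2 scale in sets 1, 2 and 3, so the pooled difference of Eomes was not seen inside the sets. With the set as a term in limma the sign of the pooled value also turned, to -0.20. The promoter of Eomes, shown because Eomes varied most among the factors and held 0 matches to the motifs above, reads as follows.
Eomes promoter, chr9:118477939-118478238, plus strand: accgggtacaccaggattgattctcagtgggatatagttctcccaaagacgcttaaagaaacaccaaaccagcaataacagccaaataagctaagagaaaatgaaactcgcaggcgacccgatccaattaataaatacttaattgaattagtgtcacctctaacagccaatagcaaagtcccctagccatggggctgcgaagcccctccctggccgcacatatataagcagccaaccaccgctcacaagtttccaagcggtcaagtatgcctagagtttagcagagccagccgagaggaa

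Tbx21 (chr11:97098071-97115331, minus strand, ENSMUSG00000001444), which directs Th1 cells and switches on Ifng, did not follow this step. Its normalized counts were 677, 615, 758 and 605 in WT and 542, 757, 839.5 and 563 in K187R, replicates 1 to 4. Means of 664 ± 70.4 in WT against 675 ± 146 in K187R (SD, n = 4 each) gave a log2 difference of 0.0056 (standard error 0.159, 95% interval -0.35 to 0.36, adjusted p = 0.998 from limma). The spread in K187R was wider than in WT, and both the lowest and the highest of the 8 samples were K187R samples. Set 1 gave -0.40, set 2 gave 0.37 and set 3 gave -0.10 on the log2 scale, opposite signs whose mean is near 0. The log2 ratio of Tbx21 to Eomes within a sample was 0.77 to 1.15 in set 2 and 3.24 to 3.91 in the other samples, with Eomes and not Tbx21 showing the step.

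Gata3 (chr2:9857078-9890034, minus strand, ENSMUSG00000015619), the Th2 factor that also supports CD4+ T cells in general, had 1033, 1447, 1099 and 1361 normalized counts in WT and 1195, 1662, 1753 and 1255 in K187R, replicates 1 to 4. Again the highest sample of each group belonged to set 2. The mean was 1235 ± 200.1 in WT against 1466 ± 282 in K187R (SD, n = 4 each), a log2 difference of 0.24 (standard error 0.160, 95% interval -0.12 to 0.60, adjusted p = 0.921 from limma), and the exact two-sided permutation p was 0.2. It was 0.17, 0.24 and -0.12 in sets 1, 2 and 3. The log2 ratio of Tbx21 to Gata3, the balance of the Th1 and Th2 factors, was -0.89 ± 0.365 in WT against -1.12 ± 0.042 in K187R (SD, n = 4 each; exact two-sided permutation test, p = 0.429). In WT the replicates of set 1 were at -0.61 and -0.54 and the other WT samples at -1.23 and -1.17, while all K187R samples lay between -1.16 and -1.06.

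Bcl6 and Prdm1 are opposing repressors, Bcl6 in Tfh and memory cells and Prdm1 in effector T cells. Prdm1 (chr10:44437177-44528501, minus strand, ENSMUSG00000038151) had 484, 1201, 476 and 512 normalized counts in WT and 624, 1335, 1226 and 499.7 in K187R, replicates 1 to 4. Set 2 held 1201 to 1335 and the other samples 476 to 624, a 2.42-fold step. The mean of Prdm1 was 668 ± 355 in WT against 921 ± 421 in K187R (SD, n = 4 each), a log2 difference of 0.46 (standard error 0.390, 95% interval -0.41 to 1.34, adjusted p = 0.921 from limma). In sets 1, 2 and 3 this difference was 0.38, 0.092 and -0.036. The RefSeq promoter of Prdm1, shown because Prdm1 varied most among the factors after Eomes, also held 0 of the motifs. Its start of transcription lies 69753 bases from the start of the gene coordinates given here.
Prdm1 promoter, chr10:44458699-44458998, minus strand: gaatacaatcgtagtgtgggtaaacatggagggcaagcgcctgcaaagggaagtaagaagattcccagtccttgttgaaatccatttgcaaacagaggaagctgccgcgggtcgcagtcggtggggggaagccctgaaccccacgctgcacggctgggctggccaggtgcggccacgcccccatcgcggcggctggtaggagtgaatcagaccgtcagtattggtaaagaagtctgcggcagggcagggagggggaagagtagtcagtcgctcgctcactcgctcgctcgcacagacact

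Bcl6 (chr16:23965052-23988852, minus strand, ENSMUSG00000022508) had 3007, 4283, 3084 and 3375 normalized counts in WT and 3268, 4399, 4358 and 3344 in K187R, replicates 1 to 4. It too was higher in set 2, at 4283 to 4399 against 3007 to 3375, a 1.35-fold step in the same direction as that of its opponent Prdm1. Bcl6 means were 3437 ± 586 in WT against 3842 ± 620.2 in K187R (SD, n = 4 each), a log2 difference of 0.16 (standard error 0.143, 95% interval -0.16 to 0.48, adjusted p = 0.922 from limma). Inside sets 1, 2 and 3 the difference was 0.10, 0.032 and -0.013, nearer to 0 than the pooled value in each. Because Prdm1 moved more than Bcl6, the ratio of Bcl6 to Prdm1 was 3.29 to 3.57 in set 2 and 5.24 to 6.69 elsewhere. Its log2 value was 2.47 ± 0.425 in WT against 2.17 ± 0.480 in K187R (SD, n = 4 each; exact two-sided permutation test, p = 0.343).

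**Figure D2:**
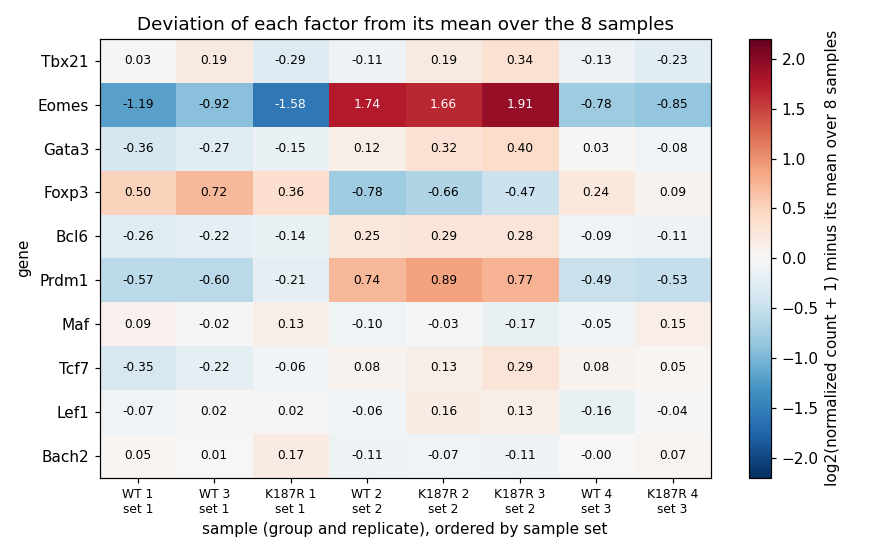
Deviation of log2(normalized count + 1) of each factor (vertical axis) from its mean over the 8 samples (horizontal axis, ordered by sample set), as colour and number. In the 3 columns of set 2 Eomes was 1.66 to 1.91 above its mean, Prdm1 0.74 to 0.89 above and Foxp3 0.47 to 0.78 below. Maf, Lef1 and Bach2 were at most 0.174 from their means in all samples.

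Tcf7 and Lef1 encode TCF-1 and LEF-1, related factors of naive and memory T cells that also act in Wnt signalling. Tcf7 (chr11:52252371-52283014, minus strand, ENSMUSG00000000782) was the most abundant of the 10, with 59813, 80095, 65271 and 80432 normalized counts in WT and 73048, 83311, 92749 and 78668 in K187R, replicates 1 to 4. All 4 K187R samples were above the median of WT, yet they overlapped WT replicates 2 and 4. The means were 71403 ± 10472 in WT against 81944 ± 8336 in K187R (SD, n = 4 each), a log2 difference of 0.21 (standard error 0.120, 95% interval -0.064 to 0.47, adjusted p = 0.921 from limma), and the exact two-sided permutation p was 0.2. It was 0.23, 0.13 and -0.032 in sets 1, 2 and 3.

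Lef1 (chr3:131110471-131224356, plus strand, ENSMUSG00000027985) came nearest to separating the groups. Its normalized counts were 13824, 13962, 14787 and 12983 in WT and 14796, 16225, 15894 and 14188 in K187R, replicates 1 to 4. Only K187R replicate 4 lay inside the WT range, below WT replicate 3. The mean was 13889 ± 739 in WT against 15276 ± 948 in K187R (SD, n = 4 each). The log2 difference was 0.14 (standard error 0.071, 95% interval -0.023 to 0.30, adjusted p = 0.921 from limma), and the exact two-sided permutation test gave p = 0.0571. Lef1 was higher in K187R in each set, by 0.049, 0.20 and 0.13 on the log2 scale, as was Bach2. These 2 were the only factors of the 10 with 1 sign in all 3 sets. How often this holds over all genes tested was not counted, so it is not a result about these 2 factors. For Lef1, 13.8% of the exonic bases overlap Gm43352 on the other strand. The log2 ratio of Tcf7 to Lef1 was 2.35 ± 0.263 in WT against 2.42 ± 0.108 in K187R (SD, n = 4 each; exact two-sided permutation test, p = 0.571).

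Bach2 (chr4:32238804-32586108, plus strand, ENSMUSG00000040270), a repressor that holds back effector genes, Prdm1 among them, had 37921, 33847, 36774 and 36495 normalized counts in WT and 41312, 34838, 33969.7 and 38399 in K187R, replicates 1 to 4. Here set 2 held the 3 lowest samples, 33847 to 34838 against 36495 to 41312, a difference of -0.16 on the log2 scale. The means of Bach2 were 36259 ± 1722 in WT against 37130 ± 3383 in K187R (SD, n = 4 each), a log2 difference of 0.031 (standard error 0.081, 95% interval -0.15 to 0.21, adjusted p = 0.965 from limma). With Prdm1 higher and Bach2 lower in set 2, the ratio of Bach2 to Prdm1 was 26.1 to 28.2 there and 66.2 to 78.4 in the other samples. On the log2 scale it was 5.88 ± 0.713 in WT against 5.45 ± 0.818 in K187R (SD, n = 4 each; exact two-sided permutation test, p = 0.229).

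Maf (chr8:115682942-115707794, minus strand, ENSMUSG00000055435), a leucine zipper factor of Il10, Il21 and Il4 transcription that Th17, Tfh and Th2 cells share, had 48083, 42180.2, 44535 and 43576 normalized counts in WT and 49329, 44334, 40100.2 and 50242 in K187R, replicates 1 to 4. The highest and the lowest sample were both K187R samples. Maf means of 44593 ± 2519 in WT against 46001 ± 4714 in K187R (SD, n = 4 each) gave a log2 difference of 0.041 (standard error 0.089, 95% interval -0.16 to 0.24, adjusted p = 0.960 from limma). The interval of Maf reached no further from 0 than 0.24. The ratio of Maf to Bcl6 was 9.20 to 10.1 in set 2 and 12.9 to 16.0 elsewhere, and its log2 value was 3.71 ± 0.301 in WT against 3.59 ± 0.376 in K187R (SD, n = 4 each; exact two-sided permutation test, p = 0.686).

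**Figure D3:**
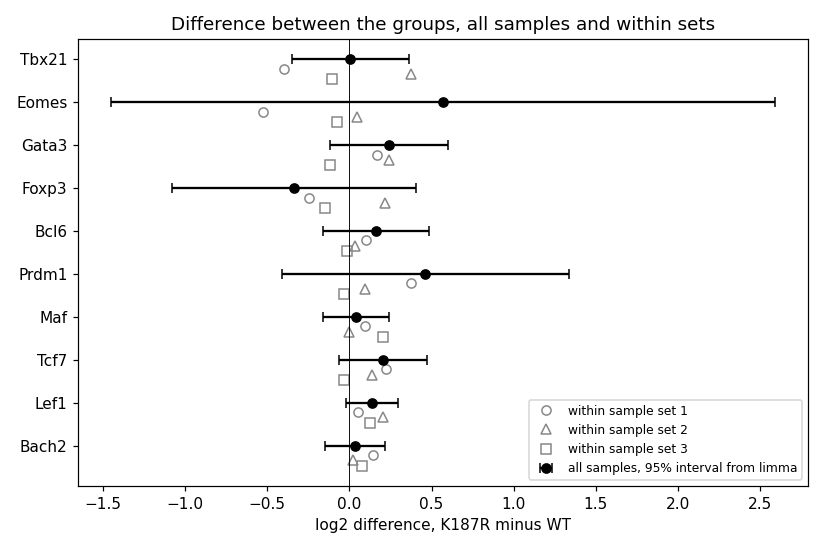
Log2 difference between K187R and WT (horizontal axis) of each factor (vertical axis), with black points and 95% intervals from limma over all 8 samples and grey marks for the difference within each sample set. All 10 intervals cross 0. The grey marks lie on 1 side of 0 in all 3 sets for Lef1 and Bach2 alone, which was not compared with all genes tested.

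Per kilobase of merged exons, which allows levels to be compared between genes, the order of the mean normalized counts over the 8 samples was Tcf7 (29209), Maf (5497), Bach2 (3692), Foxp3 (2446), Lef1 (1659), Bcl6 (543), Gata3 (339.5), Tbx21 (269), Prdm1 (142) and Eomes (41.0). The neighbours Tcf7 and Maf, Maf and Bach2, Lef1 and Bcl6, and Bcl6 and Gata3 had ranges over the samples that stood apart. The ranges of Bach2 and Foxp3, of Foxp3 and Lef1, of Gata3 and Tbx21, of Tbx21 and Prdm1, and of Prdm1 and Eomes overlapped. Compared within a sample, Tbx21 was above Prdm1, and Prdm1 above Eomes, in all 8 samples. Bach2 was above Foxp3 in 7 samples and Gata3 above Tbx21 in 6. Foxp3 was above Lef1 in the 5 samples outside set 2 and below it in set 2. Gata3 and Tbx21, the Th2 and Th1 factors, stood below Foxp3 in both groups.

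How far the factors followed the sets was described by the share of the variance of their log2 values that lay between the sets, a share that 3 sets raise more easily than 2 groups do. It was 98.4% for Eomes, 97.8% for Bcl6, 96.6% for Prdm1 and 94.5% for Foxp3, and these 4 of 10 factors were above 90%, as were 6.68% of all genes tested. Gata3 was at 86.5%, Tcf7 at 76.8%, Bach2 at 72.0% and Maf at 52.3%, against a median of 51.6% over all genes tested. Tbx21 (36.0%) and Lef1 (46.9%) lay below that median. The share between WT and K187R was highest for Lef1, at 47.1%, and at most 29.4% for the other 9 factors, where the median over all genes was 9.11%.

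Markers of other cell types moved with the sets as well. The summed normalized counts of 6 myeloid markers, all present, were 20894 to 35580.2 in set 1. They were 43815 to 49938 in set 2 and 61673 to 64664 in set 3, or 20894 to 61673 over WT and 35580.2 to 64664 over K187R. Lyz2, at 17025 to 57778, made up most of this sum, and the markers did not rank the sets alike. Lyz2, Itgam and Cd68 were highest in set 3. Csf1r and Cd14 were higher in set 2 than in set 3, and Adgre1 overlapped between these sets. Of 4 NK cell markers 3 were listed, and their sum was 157 to 198 in set 1, 393 to 483 in set 2 and 247 to 309 in set 3, or 186.6 to 483 in WT and 157 to 458 in K187R. Klrk1, at 151 to 459, made up most of this sum, and Klrb1c was at most at 24.9. Ncr1, the marker most restricted to NK cells, was at 0 in WT replicates 1 and 4 and in K187R replicate 4, and at most at 9.48. The 4 dendritic cell markers summed to 1551 to 2287 in set 2 and 759 to 1112 in the other samples (759 to 1551 in WT, 1035 to 2287 in K187R), with Siglech at 0 in WT replicates 3 and 4. Itgax made up most of this sum, and Xcr1 and Siglech were at most at 5.77 and 3.56. The 4 B cell markers, at 262 to 310.3 in set 3 and 822 to 1253 elsewhere, ranged from 262 to 1066 in WT and from 310.3 to 1253 in K187R. The 2 CD8 T cell markers summed to 387 to 403 in set 2 and 477 to 1141 elsewhere (403 to 1025 in WT, 387 to 1141 in K187R). The part of such cells in the levels of Eomes, Prdm1 and Foxp3 was not tested. In bulk RNA, fewer cells that make a factor and less of its RNA per cell cannot be told apart.

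**Figure D4:**
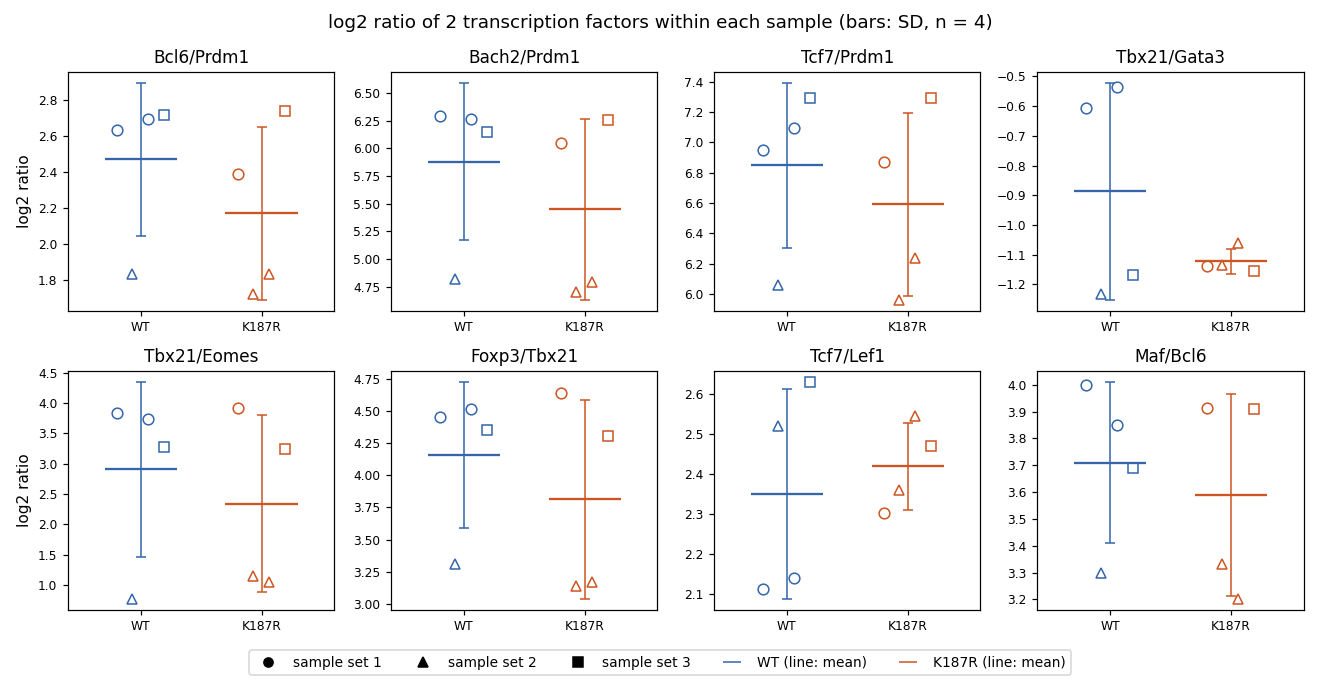
Log2 ratio of 8 pairs of factors (vertical axes) in each WT and K187R sample, with a line at the group mean, a bar for the SD and a marker shape for the sample set. The axes do not start at 0. In every pair the groups overlap, and for all pairs with Prdm1, for Tbx21 to Eomes, Foxp3 to Tbx21 and Maf to Bcl6 the triangles of set 2 lie below all other points.

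The balance of Foxp3 and Tbx21, the Treg and Th1 factors, also showed the step of set 2. Their ratio was 8.81 to 9.95 in set 2 and 19.8 to 24.9 in the other samples, with log2 values of 4.16 ± 0.567 in WT against 3.81 ± 0.773 in K187R (SD, n = 4 each; exact two-sided permutation test, p = 0.429). For Tcf7 to Prdm1, markers of less and more differentiated states, the ratio was 62.4 to 75.6 in set 2 and 117 to 157 elsewhere (exact two-sided permutation test between the groups, p = 0.571). Tbx21 to Eomes gave p = 0.714 in the same exact permutation test. Of the 8 ratios 0 separated K187R from WT, and with Benjamini-Hochberg adjustment none could come below the smallest unadjusted p of 0.229.

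The genes whose pattern over the 8 samples was nearest to that of the 3 most variable factors were found by the root mean square difference of log2 values centred on their means. Nearest to Eomes were Plet1 (0.173), Macc1 (0.252) and Rph3a (0.269), of which Macc1 and Rph3a were low, with means of 10.2 and 14.2 normalized counts. Plet1 had 1209 to 1348 normalized counts in set 2 and 160.4 to 263 in the other samples. Nearest to Prdm1 were Gpr35 (0.084), Slc7a11 (0.117) and Fpr2 (0.130), and nearest to Foxp3 were D630039A03Rik (0.122), Foxf2 (0.141) and Atp1b1 (0.144). Gpr35 followed Prdm1 from 311 to 333 normalized counts in set 2 to 110.5 to 140.1 elsewhere.

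The genes of each fate were described by lists of 15, of which 86 of 90 genes had a mean of at least 10. The lists were chosen with earlier results of these data known. A share above that of all genes can therefore come from the choice, and it is not a result about the fates. Of the 86 genes, 0 passed 0.05 in limma after adjustment, 59 had a positive and 27 a negative log2 difference, and 11 (12.8%) had an unadjusted p under 0.05, 9 higher and 2 lower in K187R, against 4.39% of all genes tested. DESeq2 called 1 of them, Ctla4, against 0.202% of all genes it tested, and 4 of the 86 had groups that did not overlap, against 2.46% of all genes tested.

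Th1 genes, the programme of Tbx21, had a median log2 difference of 0.15, with 11 of 15 positive. Il18r1, a chain of the IL-18 receptor, was 1785 ± 457 in WT against 2750 ± 375 in K187R (SD, n = 4 each), with no overlap of the groups and a log2 difference of 0.65 (adjusted p = 0.921 from limma). The cytokine Ifng, at 665 ± 124 in WT and 698 ± 174 in K187R (SD, n = 4 each), had a log2 difference of 0.050, the receptor Cxcr3 0.31 and the IL-12 receptor chain Il12rb1 0.13. For Th2 genes, the programme of Gata3, 12 of 15 could be tested, 7 of them positive, with a median of 0.052. The Th2 cytokine Il4 was at 41.3 ± 20.2 in WT and 50.2 ± 20.4 in K187R (SD, n = 4 each), Il13 at 31.2 ± 11.3 and 33.7 ± 12.1 (SD, n = 4 each), and Il5 at 0.85 to 8.43 normalized counts, near the floor. Il5, Ptgdr2 and Il24 were too low to be tested.

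Among Treg genes, the programme of Foxp3, 9 of 15 were negative, with a median of -0.076, the only one of the fate lists with a negative median. Ctla4, an inhibitory receptor of Treg and activated T cells, had 18551, 13494, 16697 and 13975 normalized counts in WT and 11057, 10949, 10094 and 11599 in K187R, replicates 1 to 4. Every K187R sample was below every WT sample, in set 2 too, and DESeq2 called it lower (adjusted p = 0.0106) where limma did not (log2 difference -0.51, standard error 0.107, adjusted p = 0.921). Within each group the samples of set 2 were the lowest for Ctla4, as they were for Foxp3. Unlike Foxp3, whose WT replicate 2 was the lowest sample of all, Ctla4 in WT replicate 2 stayed above every K187R sample. Itgae, the integrin chain CD103 (0.54), and Nrp1, a coreceptor of thymic Treg cells (0.41), had unadjusted p under 0.05 in the other direction. Il2ra, the high-affinity IL-2 receptor chain, had a log2 difference of -0.35, and Ikzf2, the Treg factor Helios, 0.34.

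Tfh genes, the programme of Bcl6, were positive in 14 of 14 tested, with a median of 0.20 and unadjusted p under 0.05 for Il6ra (0.30), a chain of the IL-6 receptor, and for the related nuclear factors Tox (0.47) and Tox2 (0.56). Over all genes tested 48.4% were positive, and none of the 14 passed after adjustment. The chemokine receptor Cxcr5 was 3458 ± 227 in WT and 4030 ± 540 in K187R (SD, n = 4 each), a log2 difference of 0.21, and the inhibitory receptor Pdcd1 and the cytokine Il21 had differences of 0.065 and 0.016. Ascl2, an inducer of Cxcr5, was too low to be tested.

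Naive and memory genes, which Tcf7, Lef1 and Bach2 favour, had a median of 0.10 with 11 of 15 positive, and Nsg2 (0.38) had an unadjusted p under 0.05. The chemokine receptor Ccr7 had a log2 difference of -0.053 and the IL-7 receptor chain Il7r 0.10. Terminal effector genes, which Prdm1 favours, had a median of 0.13 with 10 of 15 positive. In that list Id2, an inhibitor of E proteins, was 7612 ± 697 in WT and 9568 ± 921 in K187R (SD, n = 4 each, log2 difference 0.33), and Fasl, a death ligand, was 494 ± 33.9 in WT and 369 ± 39.5 in K187R (SD, n = 4 each, log2 difference -0.43). The groups did not overlap for Id2 and Fasl, and both had an adjusted p of 0.921 from limma. Cx3cr1, a chemokine receptor, had a log2 difference of 0.31 at an unadjusted p under 0.05, the granule protease Gzmb -0.22 and the inhibitory receptor Havcr2 0.27.

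**Figure D5:**
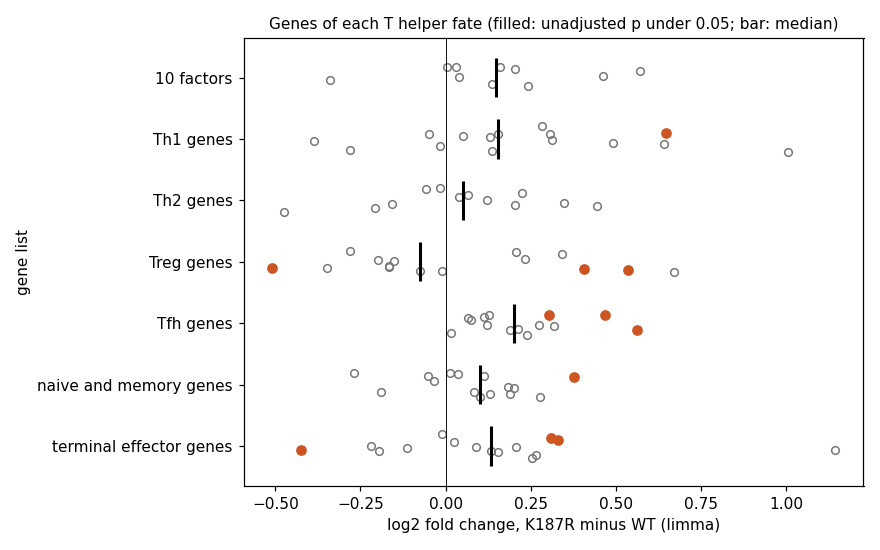
Log2 fold change between K187R and WT from limma (horizontal axis) for the 10 factors and the tested genes of each fate list (vertical axis), with 1 point per gene, a bar at the median and filled points for an unadjusted p under 0.05. None of the 10 factors is filled, and 11 of the 86 list genes are, from Ctla4 at -0.51 to Il18r1 at 0.65.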

How the data were processed

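RNA seq was made from 4 WT and 4 K187R samples. The authors built poly-A libraries, trimmed reads with Cutadapt, aligned them with HiSat2 to GRCm38, and used featureCounts with GENCODE M15 and DESeq2 (the labels name no versions). The kit is named differently in the labels and the methods. Each deposited value is a signal, the number of reads on a gene after division by the size factor of its sample. All (100%) were whole multiples of 1 read within 0.01 read, and reads were recovered from them. The factors, lists and tests were chosen with earlier results of these data known.

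Differences were tested with limma (lmFit, eBayes with trend) on log2(normalized count + 1) for genes with a mean of at least 10, adjusted by Benjamini-Hochberg at 0.05, and single factors and log2 ratios by an exact permutation test over the samples (two-sided, 70 assignments). Log2 differences understate changes of low genes. edgeR's quasi-likelihood test and DESeq2 on the recovered reads were alternatives, with other pseudocounts, filters, normalizations, sets and samples left out. Genes named are the 10 factors, the first 3 of each list, list genes with an unadjusted p under 0.05, and the 3 nearest to each of the 3 most variable factors. Some genes that this rule takes are not reported here. Other names were chosen after values were seen. The floor of 3 reads covers counting error only, and low genes such as Eomes are the least precise. Exons and coordinates are of GRCm38 with GENCODE M21, in which 22784 of the 22829 listed genes are found. The fits of limma, edgeR and DESeq2 were tested on simulated counts that held no sample sets, so that test does not cover the sets seen here. Python 3.11.15 was used with matplotlib 3.10.9, pandas 2.3.3, scipy 1.17.1 and numpy 2.4.6, and R 4.3.3 with DESeq2 1.42.0, edgeR 4.0.16 and limma 3.58.1.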

Additional observations from a re-analysis of the deposited data

Results flagged for a closer look

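In 5 of 36 groups of 4 samples examined, for the 10 factors and the 8 ratios, 1 sample stood apart from the other 3 by more than Dixon's 95% critical value allows, where chance flags about 1 group in 20 (1.8 here). The sample was WT replicate 2 each time, the only WT sample of set 2. Eomes was at 359.56 normalized counts there against 46.3 to 61.9 in the other WT samples. Prdm1 was at 1200.8 against 476 to 512. The log2 ratio of Bcl6 to Prdm1 was 1.8338 against 2.63 to 2.72, that of Bach2 to Prdm1 was 4.8158 against 6.15 to 6.29, and that of Foxp3 to Tbx21 was 3.3124 against 4.35 to 4.51. These are not 5 separate observations, since Prdm1 enters 3 of them. K187R replicates 2 and 3 held values close to those of WT replicate 2.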

How the results depend on the processing

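None of the 10 factors passed an adjusted p of 0.05 in any of 22 alternatives, the smallest being 0.395 for Tcf7, and Gata3, Foxp3, Bcl6, Prdm1, Tcf7 and Lef1 kept their direction in all of them. Their sizes moved. Without WT replicate 2, Foxp3 went from -0.34 to -0.65 (adjusted p = 0.562 from limma, under 0.05 unadjusted), Prdm1 from 0.46 to 0.78 (adjusted p = 0.574 from limma, under 0.05 unadjusted) and Bcl6 from 0.16 to 0.27. WT replicate 2 is the only WT sample of set 2, so in that fit set 2 is in K187R alone and cannot be told apart from the group. In the same fit 1453 of 16982 genes were under 0.05 unadjusted. With the sample set in limma Foxp3, Prdm1 and Bcl6 were at -0.052, 0.16 and 0.045, with Gata3 at 0.12 and Tcf7 at 0.12 instead of 0.24 and 0.21. The count of genes with an adjusted p under 0.05 was 0, and became 31 in DESeq2 (17 higher, 14 lower), 1 (Ccr6) with the sample set in limma, 1 with the set in edgeR, and 0 to 4 with 1 sample left out, 4 without WT replicate 4. Of the fate list genes, DESeq2 called 1. The replicate numbers were not taken as pairs, since number 3 did not pair its samples (correlations of deviations 0.592, 0.663, -0.092 and 0.630 for numbers 1 to 4; 6 of 8 samples correlated best with their own number, a hint from the data). With the replicate block limma called 0 genes, with 2046 at an unadjusted p under 0.05, against 746 without it, and Lef1 was at an unadjusted p of 0.0320 in limma and 0.0297 in edgeR (0.0411 in limma under quantile normalization), so that 1 of the 10 factors was under 0.05 unadjusted. edgeR called 0 genes (729 unadjusted) and 0 with the replicate block (1930 unadjusted). With the block, 1 of the 10 factors therefore stood against 2046 of 16982 genes tested in limma and 1930 of 16982 in edgeR. That count with the block is not a result about Lef1. Under quantile normalization 729 of 16982 genes were under 0.05 unadjusted in limma.

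Directions turned where the value was near 0 or followed the sets. Tbx21 became -0.025 under quantile normalization, -0.038 with the sample set in limma, -0.037 with it in edgeR and -0.29 without set 2 (-0.11 to 0.10 with 1 sample left out). Eomes became -0.20 with the set in limma, -0.14 with it in edgeR and -0.25 without set 2 (0.030 to 1.25 with 1 sample left out). With 1 sample left out Maf ranged from -0.0037 (without K187R replicate 4) to 0.10 (0.13 without set 2) and Bach2 from -0.022 to 0.072 (negative without WT replicate 2, -0.0017, or K187R replicate 1). The log2 ratio of Tcf7 to Lef1 ranged from -0.011 to 0.16 (negative without WT replicate 1 or 3) and that of Maf to Bcl6 from -0.26 to 0.0091, and was 0.065 without set 2. Foxp3 to Tbx21 became 0.033 without set 2 (-0.63 to -0.12 with 1 sample left out). The cause was not tested. The fits without set 2 and edgeR with the block or the set were chosen after seeing the data. Eomes, with 31 to 384 reads, has the widest interval.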
